A study of Mus musculus with 10 samples.

Results

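Promoter windows whose DNA methylation was lower in Tet2 knockout (Tet2KO) oocytes than in wild-type (WT) oocytes of either age, 2 months (young) or 11 months (old), were examined. A window spans 2000 bp centred on an annotated transcript start, and its level is the percentage of CpG calls in it that were methylated. A window was a member when its level in the knockout lay at least 20 percentage points (hereafter points) under the level in young WT and also at least 20 points under the level in old WT. Of 40537 nuclear windows listed for all 3 groups, 279 met the rule, 0.688% of the windows. Taken singly, 1307 windows (3.22%) lay that far under young WT and 789 (1.95%) under old WT. The 279 members fell into 233 loci after windows that overlap were merged. The members were chosen by these levels, so their differences are given as a description, with no test.

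The material was metaphase II oocytes, mature eggs arrested before fertilisation, of a C57BL6/129 background. The compared groups were WT females aged 2 months (young WT, 4 libraries), WT females aged 11 months (old WT, 3 libraries) and Tet2KO females aged 2 months (the knockout, 3 libraries). The labels give neither the knockout allele nor the number of animals. They disagree on the input of a library, naming 10 oocytes in 1 place and a single oocyte in another. Each group was deposited as 1 pool, so every level below is a single value, and the intervals beside it (Wilson or Newcombe, 95%) cover counting error alone. The tables hold 15046863, 30431118 and 8610762 CpG calls for young WT, old WT and the knockout. Calls that come from PCR copies or from the same read are not independent. As a check of the labelled cell type, 10 of 11 maternally imprinted genes with a window had one at 60% or more in every pool, and H19 was at 4.21%, 1.61% and 2.5%.

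DNA methylation in the mouse egg is laid down while the oocyte grows, by the enzyme Dnmt3a with its cofactor Dnmt3l, mostly across gene bodies that the oocyte transcribes. CpG-rich promoters usually stay free of it, whereas start sites inside a transcribed gene are often methylated. Tet2 belongs to a family of dioxygenases that oxidise 5-methylcytosine to 5-hydroxymethylcytosine and further products, a route to demethylation. Bisulfite sequencing reads methylcytosine and hydroxymethylcytosine alike, so a level sums both forms. A middle level in a pool of oocytes cannot be told apart between fewer methylated molecules in each oocyte and fewer methylated oocytes.

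The promoters of 6 members are shown because they had the largest smaller drop among named members with at least 50 calls in every pool and a sequence in the RefSeq promoter table (build GRCm38.p6). The smaller drop is the lesser of the differences to the 2 WT pools. Each run is 300 bases, 5′ to 3′ on the gene's strand, from 250 bases before the start to 50 after it. Capitals mark CpG dinucleotides. Levels were counted over the covered CpGs of the whole 2000 bp window and not over the run alone. At Junb these were 113, 116 and 83 positions in young WT, old WT and the knockout. Which of the capitals were covered is not known here. Sumf2 lies at chr5:129846740-129847039 on the plus strand, Ralgapa2 at chr2:146511955-146512254 on the minus strand and Junb at chr8:84978699-84978998 on the minus strand. Timm8a1 lies at chrX:134541621-134541920 on the minus strand, Tigd3 at chr19:5894079-5894378 on the minus strand and Krt7 at chr15:101412153-101412452 on the plus strand.
Sumf2: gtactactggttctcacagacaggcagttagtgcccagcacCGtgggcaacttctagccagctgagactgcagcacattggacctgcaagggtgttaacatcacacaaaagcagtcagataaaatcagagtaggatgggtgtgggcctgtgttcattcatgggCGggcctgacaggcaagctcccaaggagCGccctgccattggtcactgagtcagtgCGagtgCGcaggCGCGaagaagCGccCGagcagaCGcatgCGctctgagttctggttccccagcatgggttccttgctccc
Ralgapa2: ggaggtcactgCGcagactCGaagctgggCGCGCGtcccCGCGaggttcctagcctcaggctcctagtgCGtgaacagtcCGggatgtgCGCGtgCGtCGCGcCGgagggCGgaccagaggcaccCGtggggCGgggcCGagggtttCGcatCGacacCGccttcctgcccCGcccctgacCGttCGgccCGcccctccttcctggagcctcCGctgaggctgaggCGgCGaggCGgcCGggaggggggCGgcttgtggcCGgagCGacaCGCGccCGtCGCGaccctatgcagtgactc
Junb: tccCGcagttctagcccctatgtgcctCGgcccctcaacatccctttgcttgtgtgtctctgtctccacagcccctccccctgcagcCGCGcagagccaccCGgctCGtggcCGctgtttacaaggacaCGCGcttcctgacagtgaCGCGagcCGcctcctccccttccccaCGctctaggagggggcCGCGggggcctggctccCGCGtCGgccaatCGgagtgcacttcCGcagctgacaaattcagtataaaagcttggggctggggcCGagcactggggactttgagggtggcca
Timm8a1: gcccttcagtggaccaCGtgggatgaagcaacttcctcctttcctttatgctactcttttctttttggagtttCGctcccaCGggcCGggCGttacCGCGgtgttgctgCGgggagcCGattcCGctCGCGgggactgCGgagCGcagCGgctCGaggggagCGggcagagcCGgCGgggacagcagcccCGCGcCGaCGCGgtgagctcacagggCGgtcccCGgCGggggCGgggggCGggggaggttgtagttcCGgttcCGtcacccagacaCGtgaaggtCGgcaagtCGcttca
Tigd3: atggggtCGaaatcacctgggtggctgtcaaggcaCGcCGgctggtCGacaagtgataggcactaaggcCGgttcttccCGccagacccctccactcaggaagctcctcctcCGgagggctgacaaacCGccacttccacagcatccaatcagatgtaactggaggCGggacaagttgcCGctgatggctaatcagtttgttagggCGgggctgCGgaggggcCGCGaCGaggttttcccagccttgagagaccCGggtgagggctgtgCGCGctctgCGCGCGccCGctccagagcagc
Krt7: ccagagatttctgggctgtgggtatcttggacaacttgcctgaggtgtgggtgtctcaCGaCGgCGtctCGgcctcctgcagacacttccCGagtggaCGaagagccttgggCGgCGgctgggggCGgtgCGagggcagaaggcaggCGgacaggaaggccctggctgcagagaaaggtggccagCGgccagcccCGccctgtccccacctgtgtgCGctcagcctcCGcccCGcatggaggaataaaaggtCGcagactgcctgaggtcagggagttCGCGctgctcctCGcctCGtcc

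The runs hold from 11 CpGs (Sumf2) to 39 (Ralgapa2), with 34 for Timm8a1, 22 for Tigd3 and 21 each for Junb and Krt7. All but Sumf2 thus carry at least 15 CpGs, although only 16 of 88 member promoters do. Junb was the only one of the 6 that held both CCAAT and TATAAA.

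Junb, an AP-1 transcription factor subunit induced as an immediate early gene, had the deepest coverage among named members with a drop over 30 points. Its window (chromosome 8, 84977719 to 84979718, mm10) was at 64.2% in young WT (628 calls, interval 60.3 to 67.8), 67.1% in old WT (328 calls, 61.8 to 71.9) and 26.6% in the knockout (199 calls, 21.0 to 33.2). The WT intervals overlap each other, and neither overlaps that of Tet2KO. The difference was -37.5 points to young WT (-44.3 to -30) and -40.4 to old WT (-47.9 to -32.0).

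Timm8a1, an X-linked chaperone of the mitochondrial intermembrane space, was also lowest in the knockout, with fewer calls than Junb in both WT pools. It was at 66.2% (157 calls) in young WT, 61.5% (244 calls) in old WT and 25.2% (210 calls) in the knockout, the pool with the fewest calls overall. Its differences were -41.0 points (-49.8 to -31.1) and -36.2 points (-44.2 to -27.4). Both WT pools were high and Tet2KO was low, with no overlap of intervals.

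Ralgapa2, a catalytic subunit of the complex that activates the GTPase of Ral proteins, carried the most CpG-dense promoter of all members with a sequence. Its window was at 66.8% (196 calls) in young WT, 76.8% (224 calls) in old WT and 25.6% (117 calls) in the knockout. The size of this difference depended on how calls were weighted. The authors' deposited fraction, read here as the mean over covered CpG positions, was 68.3%, 74.6% and 45.9%. By that measure the differences were -22.4 and -28.7 points in place of -41.2 and -51.1.

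Sumf2, a relative of the enzyme that activates sulfatases, was nearly free of methylation in the knockout pool alone. It was at 47.1% (51 calls) in young WT, 46.9% (113 calls) in old WT and 5.26% (76 calls) in the knockout. By the deposited fraction Tet2KO was at 13.9%. The WT pools were almost equal, and the differences were -41.8 points (-55.6 to -26.8) and -41.6 points (-51.3 to -30).

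Tigd3, a gene derived from a transposase, was at 89.5% (76 calls) in young WT, 65.5% (145 calls) in old WT and 34.8% (92 calls) in the knockout. Here the WT pools also stood apart, with old WT between young WT and Tet2KO. Krt7, a keratin of simple epithelia, was at 58.6% (111 calls), 66.8% (196 calls) and 28.8% (80 calls) in the same order. Its difference to young WT was -29.8 points by calls and -9.42 by the deposited fraction, so its membership rested on the measure.

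**Figure D1:**
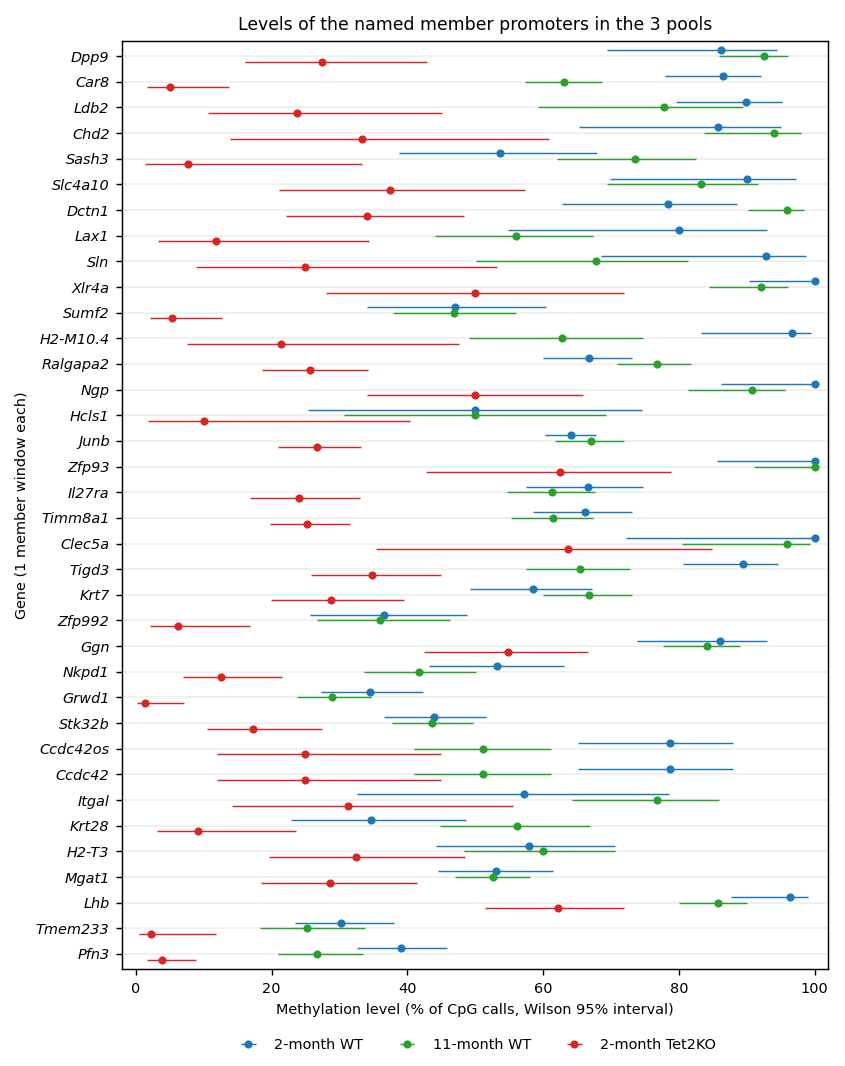
Methylation level on the horizontal axis (percentage of CpG calls) of 36 named genes, ordered by the smaller drop from Dpp9 at the top to Pfn3 at the bottom. Each row is 1 window, and the rows of Ccdc42 and Ccdc42os show the same window. Points are pooled levels and bars Wilson 95% intervals. In every row the Tet2KO point is the lowest, as the rule requires, while the WT points lie close together in some genes (Sumf2, Junb, Stk32b) and apart in others (Car8, Tigd3, H2-M10.4).

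Across the 279 members the median level was 69.2% in young WT, 64.0% in old WT and 25% in the knockout. The central 50% of members lay between 46.8% and 90.8% in young WT, between 44.9% and 84.1% in old WT and between 9.55% and 50% in the knockout. The members were less methylated in WT than the windows they came from. Of all shared windows, 6759 were at 20% or more in both WT pools and so could have met the rule, and 4.13% of these did. The medians of those 6759 windows were 92.5%, 93.9% and 92.9% in young WT, old WT and the knockout.

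Members differed in what remained in the knockout. In 78 members both WT pools were at 80% or more, and there the Tet2KO median was 61.1% and the lowest level 22.7%. None of these 78 was under 5% in the knockout, and 64 kept 50% or more. In 55 members both WT pools were under 50%, where the rule permits only low knockout levels, and 31 of them were under 5% in the knockout. In all, 44 members were under 5% in the knockout and 28 of these had no methylated call. Those 28 had 10 to 44 calls, and a count of 0, taken as up to 3 methylated calls and not as a Wilson bound, then allows a level of up to 30% at the lowest depth and 6.82% at the highest.

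The WT pools lay within 10 points of each other in 167 of 279 members. They were 20 points or more apart in 50, 39 with old WT lower and 11 with it higher. The level in old WT was below that in young WT in 60.2% of members and in 46.4% of the 6759 windows. The median of old minus young WT was -2.74 points over members and 0 over those windows. The central 50% of these differences ran from -12.0 to 4.51 points over members and from -4.17 to 6.40 over those windows. The WT pools thus lay further apart in members than in the windows they came from. The rule limits these values from below only, and no test was made.

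**Figure D2:**
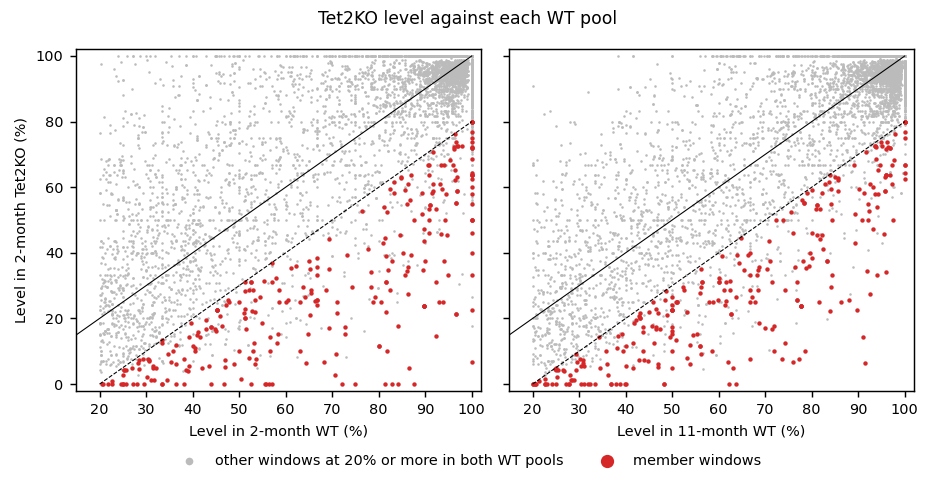
Tet2KO level (vertical, %) against the level in young WT (left) and old WT (right) for the 6759 windows at 20% or more in both WT pools; the solid line marks equal levels and the dashed line 20 points less in the knockout. The 279 members, in red, lie under the dashed line in both panels by construction and spread over all WT levels, while most other windows crowd near full methylation in both pools.

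Depth set the precision of each member. Median calls per member were 39 in young WT, 59 in old WT and 24 in the knockout, close to the 39, 64 and 26 of the 6759 windows. In Tet2KO 107 members had fewer than 20 calls. Both differences had an interval that excludes 0 in 226 members, whose median of the smallest pool's calls was 27, against 15 in the other 53. With 10 to 19 calls in the shallowest pool 4.35% of the windows at 20% or more in both WT pools were members, with 20 to 49 calls 4.03%, with 50 to 99 calls 3.37% and with 100 or more 5.58%, the last being 12 of 215. The share thus fell over the first 3 classes, and the last class includes overlapping windows of the same locus, as at Ifrd1. Of all shared windows, members were 1.74%, 1.29%, 0.362% and 0.0705% in the same classes. Few deep windows could have met the rule, 215 of 17030 with 100 or more calls. Whether low depth added members was not tested.

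The rule stops at a sharp line. Just inside it were Glipr2 (33.3%, 50.9% and 13.3% in young WT, old WT and the knockout), Akt2 (100%, 100% and 80%) and Midn (51.4%, 48.6% and 28.5%). Just outside it were Celf2 (73.1%, 28.3% and 8.33%), Tbx6 (72.6%, 85.1% and 52.7%) and Prr18 (28.3%, 22.5% and 2.65%). Their smaller drops ran from 20.1 points down to 19.9. By the deposited fraction 292 windows met the rule and 172 windows met it by both measures, which is 61.6% of the members and 58.9% of the other list. Of the members 256 were lower than both WT pools by at least 10 points by that measure and 275 by any amount. Of 36 named genes 7 did not meet the rule by that measure, namely Hcls1, Krt7, Zfp992, Stk32b, Itgal, Lhb and Tmem233.

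The largest drops at named genes were seen at windows of moderate depth. Dpp9, a cytosolic dipeptidyl peptidase, was at 86.2% (29 calls) in young WT, 92.5% (107 calls) in old WT and 27.5% (40 calls) in the knockout. Ldb2, an adaptor of LIM domain transcription factors, was at 89.8% (59 calls), 77.8% (27 calls) and 23.8% (21 calls). Its 4 member windows start within 100 bp and hold the same calls, so they are 1 measurement. Chd2, a chromatin remodeller, was at 85.7%, 94.0% and 33.3%, the last from 12 calls. In these 3 genes both WT pools were high and Tet2KO was at 33.3% or less.

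Car8, a catalytically inactive relative of carbonic anhydrases that binds the inositol trisphosphate receptor, was nearly unmethylated in the knockout. It was at 86.5% (89 calls) in young WT, 63.1% (274 calls) in old WT and 5.0% (60 calls) in the knockout. All 3 intervals were apart from each other, in the order 77.9 to 92.1, 57.3 to 68.6 and 1.71 to 13.7. The names Car8, Ldb2, Chd2, Sln, Il27ra, Itgal, Zfp992, Ngb and Hsd11b2 rest on the boundary of the annotated gene, without a strand in the table.

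Sash3 and Itgal were the members of the immune cell list. They were 2 of 26 genes with a shared window and of 4 that could have met the rule. Among all named genes those shares were 0.537% and 5.38%. The list was written with the Sash3 value already known. Lax1, Il27ra, Ngp, Clec5a and Hcls1, given below, are not counted in it and were named for the size of their drop or their number of windows. Sash3, a lymphocyte adaptor on the X chromosome, was at 53.7% (41 calls) in young WT, 73.5% (68 calls) in old WT and 7.69% (13 calls) in the knockout. Lax1, an adaptor that restrains lymphocyte receptor signalling, was at 80% (15 calls), 56.1% (66 calls) and 11.8% (17 calls). Il27ra, the receptor of interleukin 27, was at 66.7% (111 calls), 61.3% (212 calls) and 24.0% (104 calls). Itgal, the integrin alpha chain of LFA-1, was at 57.1% (14 calls), 76.8% (56 calls) and 31.2% (16 calls). The Itgal difference to young WT had an interval that includes 0 (-53.3 to 8.68).

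Ngp, a neutrophil granule protein, was at 100%, 90.8% and 50% in young WT, old WT and the knockout. Clec5a, a myeloid lectin receptor, was at 100%, 96.0% and 63.6% from as few as 10 calls. Hcls1, an actin regulator of blood cells, was at 50%, 50% and 10.0%, also from 10 calls in the knockout. By the deposited fraction Hcls1 differed from young WT by -14.6 points in place of -40. Of these genes Il27ra alone had 50 calls in every pool. Histocompatibility genes H2-M10.4 and H2-T3 were at 96.7% and 58.0% in young WT, 62.7% and 60% in old WT, and 21.4% and 32.4% in the knockout. Their knockout levels rest on 14 and 37 calls.

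Ggn, which encodes a testis germ cell protein, was at 86.0% (50 calls) in young WT, 84.2% (158 calls) in old WT and 54.8% (62 calls) in the knockout. The other member windows of Ggn were higher in the knockout, at 63.2% and 62.7%. Pfn3, a testis profilin, was at 39.0% (205 calls), 26.7% (187 calls) and 3.91% (128 calls). Ccdc42, needed for the sperm tail, shares its window with the opposite-strand gene Ccdc42os, and that window was at 78.7%, 51.1% and 25%. Lhb, the beta subunit of luteinising hormone, was at 96.4% (55 calls), 85.7% (189 calls) and 62.2% (82 calls), and by the deposited fraction it differed from old WT by -3.78 points only.

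Xlr4a, of an X-linked lymphocyte-regulated family, was at 100%, 92.0% and 50% in young WT, old WT and the knockout. Krt28, a keratin of the hair follicle, was at 34.7%, 56.2% and 9.09%. Among zinc finger genes, Zfp93 was at 100%, 100% and 62.5%, and Zfp992 at 36.5%, 36.0% and 6.25%. Slc4a10, a sodium-coupled bicarbonate transporter of neurons, was at 90.0%, 83.3% and 37.5%. Sln, the regulator of the muscle calcium pump, was at 92.9%, 67.7% and 25%. Calls in the knockout were few, with 16 at Xlr4a, 33 at Krt28, 24 at Zfp93, 48 at Zfp992, 24 at Slc4a10 and 12 at Sln.

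Some members with deep coverage were only partly methylated in WT and close to 0 in the knockout. Grwd1, a histone-binding protein of ribosome assembly and replication licensing, was at 34.4% (151 calls) in young WT, 28.9% (263 calls) in old WT and 1.32% (76 calls) in the knockout. Tmem233 was at 30.3% (152 calls), 25.2% (119 calls) and 2.27% (44 calls). In both, the WT intervals overlapped each other and lay apart from that of Tet2KO.

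Nkpd1 was at 53.3% (92 calls) in young WT, 41.7% (132 calls) in old WT and 12.5% (80 calls) in the knockout. Stk32b, a serine/threonine kinase, was at 43.9% (164 calls), 43.7% (261 calls) and 17.3% (75 calls). By the deposited fraction Stk32b differed from old WT by -10.5 points in place of -26.3. In all, 38 members in 30 loci had at least 50 calls in every pool. Of these 38, 23 met the rule by the deposited fraction too.

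The remaining 46 symbols had smaller drops between 20.0 and 37.4 points, with a median of 26.5 calls in the shallowest pool. A few of them are given here, chosen after their values were seen, for their depth or function. Ifrd1, a transcriptional coregulator of differentiation with 29 CpGs in its promoter, was the deepest of these genes, at 51.0% (559 calls) in young WT, 43.1% (643 calls) in old WT and 21.7% (318 calls) in the knockout. Its deposited fraction was 49.6%, 43.8% and 25.6%, which leaves it just outside the rule by that measure. Hsd11b2, which inactivates glucocorticoids, was at 97.8% (46 calls), 95.2% (313 calls) and 72.5% (222 calls), so it stayed mostly methylated in the knockout, and by the deposited fraction its smaller drop was 14.1 points.

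Cdkn2d, an inhibitor of cyclin-dependent kinases of the INK4 family, was at 93.3%, 97.2% and 61.1% in young WT, old WT and the knockout, the last from 18 calls. Ngb, neuroglobin, was at 96.8%, 95.8% and 63.2%, and Cma1, a mast cell chymase, at 58.1%, 46.2% and 12.5%. The other 2 Ngb windows overlap the one given and were at 58.8% in the knockout. Ngb and Cdkn2d thus stayed mostly methylated in the knockout, whereas Cma1 was partly methylated in WT and low there.

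Windows without a symbol made up 148 of the 279 members, and 94 of these had their centre inside the span of an annotated gene. The largest drop among those with at least 50 calls in every pool lay inside Mpped1 (chromosome 15, 83791014 to 83793013), at 84.1% (63 calls) in young WT, 72.0% (150 calls) in old WT and 17.9% (56 calls) in the knockout. A window outside annotated genes on chromosome 7 (17798997 to 17800996) was at 52.2% (136 calls), 53.1% (160 calls) and 8.06% (62 calls). These were chosen after their values were seen. With or without a symbol, 48.0% of members had their centre inside a gene span and over 1000 bp from its ends, against 62.7% of the 6759 windows and 31.4% of all shared windows.

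Other start windows of some member genes were also listed. For 8 member genes there were 16 further windows at least 2000 bp from the member, which share no base with it, some of them near-copies of each other. Of the 16, 9 were under 10% in every pool, and only 4 were at 10% or more in both WT pools and so could lie 10 points under both. None of those 4 windows, at Dctn1, Gcnt2 and Mgat1, was lower in the knockout than both WT pools. Dctn1, the large subunit of dynactin, had windows at 1.37%, 1.82% and 2.56% and at 100%, 97.9% and 100%, 19995 and 6357 bp from its member at 78.4%, 96.0% and 34.0% (young WT, old WT and the knockout). Mgat1, which starts complex N-glycan synthesis, had windows at 4.65%, 4.14% and 3.61% and at 100%, 96.6% and 100%, against 53.1%, 52.6% and 28.6% at its member. Both genes thus had 1 start nearly free of methylation and 1 start methylated in all pools beside the one that was lower in the knockout.

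Prkaca, the catalytic subunit of protein kinase A, which holds oocytes in meiotic arrest, was at 66.7%, 80% and 38.5% at its member in young WT, old WT and the knockout. Its other start, 3890 bp away, was at 12.3% (579 calls), 9.57% (993 calls) and 3.69% (325 calls). That start too was lowest in the knockout, with differences of -8.57 and -5.87 points. By the deposited fraction the smaller drop of the member was 8.86 points in place of 28.2. Akt2, a kinase of insulin signalling, was at 12.4%, 5.45% and 4.46% at the start farthest from its member. There the knockout differed from old WT by -0.993 points only. The Akt2 member rests on 15 calls in the knockout, and by the deposited fraction its smaller drop was 13.3 points. Gcnt2, a glucosaminyltransferase of the I blood group antigen, went the other way at a second start: it was at 65.1%, 74.0% and 93.9% there, and at 53.3%, 59.9% and 25.7% at its member. Prkaca, Akt2 and Gcnt2 were chosen after their values were seen.

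**Figure D3:**
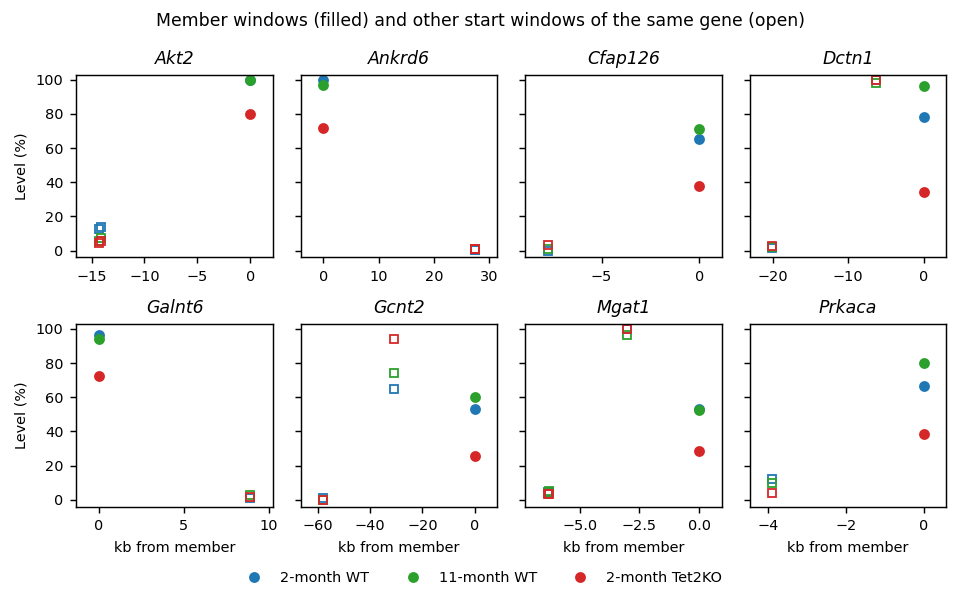
Methylation level (vertical, %) of the member window (filled circles) and of other start windows of the same gene (open squares) by distance between them (horizontal, kb, along the chromosome), for the 8 genes with such windows; colours give the pools. Tet2KO is lowest at the filled circles, while the open squares lie near 0 or near 100% in all pools for most genes, and in Gcnt2 a second start is highest in the knockout.

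Windows near members, of any gene, were also compared. The nearest window with its centre 2000 to 20000 bp away had a median difference of -0.892 points to young WT and -0.683 to old WT over the 130 members that had one. Over all 21088 windows with such a neighbour the medians were 0 and -0.293. The member medians were -33.6 and -30.7 points. Some members share a neighbour, so the 130 pairs hold 113 distinct neighbours. In 3 of the 130 pairs the neighbour was a member itself (2.31%), against 0.768% over all windows. Starting from windows at 20% or more in both WT pools the share was 0.937%. Neighbours were mostly unmethylated, at a median of 7.22%, 4.82% and 4.26% in young WT, old WT and the knockout. Among the 31 that were at 20% or more in both WT pools, 13 were below both in the knockout (41.9%), against 33.8% of such neighbours of all windows. Median differences of the 31 were -4.51 and -1.49 points, against 0 and 0 for such neighbours of all windows. The means were -9.37 and -2.54 points, against 0.651 and -0.977. Of the 31, 3 were members themselves. Their median levels were 87.5%, 80.5% and 90.3% in young WT, old WT and the knockout, so the median level was highest in the knockout. No test was made. For the nearest window 20000 to 100000 bp away the medians over 232 members were 0 and 0, and no such window was a member.

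**Figure D4:**
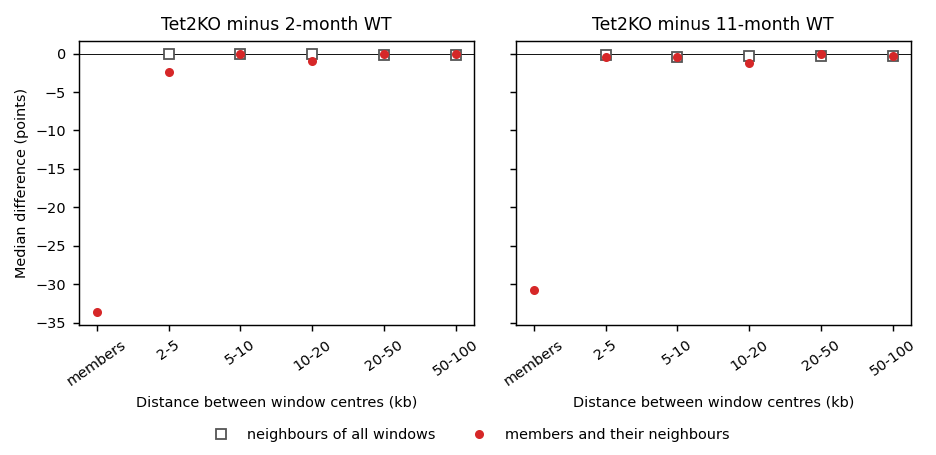
Median difference in level (vertical, points) between the knockout and young WT (left) or old WT (right) at the members and at the nearest window in each distance range (horizontal, kb between centres); red circles start from members and grey squares from all windows. Members lie at -33.6 and -30.7 points, and every neighbour median lies between -2.33 and 0.

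Windows that overlap a member share some of its calls but not always its difference. There were 63 such windows outside the rule, with a median distance between centres of 806 bp. Of these, 39 were lower in the knockout than both WT pools, 26 of them by 10 points or more, and the median smaller drop was 3.10 points.

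Member promoters were CpG-poor on the whole, like other methylated promoters of these oocytes. The 111 members named through the RefSeq promoter table matched 88 sequences. These held a median of 6.5 CpGs per 300 bases, against 6.0 in 1847 promoters at 20% or more in both WT pools and 17.0 in 16407 promoters of shared windows. The ratio of observed to expected CpG had medians of 0.315, 0.298 and 0.679. At least 15 CpGs were found in 16 of the 88 (18.2%), against 18.2% and 57.0%. By CpG content the members thus resembled the promoters that could have met the rule.

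Motif letters were searched on both strands of the same sequences. CCAAT was found in 50% of member promoters, 37.8% of those at 20% or more in both WT pools and 37.4% of the whole table of 32851. TATAAA was found in 18.2%, 12.1% and 13.6%, GGGCGG in 31.8%, 32.8% and 35.7%, and CACGTG in 7.95%, 6.33% and 7.15%. TGACGTCA and the NRF1 core motif each occurred in 1 member promoter, against 1.79% and 0.971% of the table. All these motifs but CCAAT and TATAAA contain CpG.

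**Figure D5:**
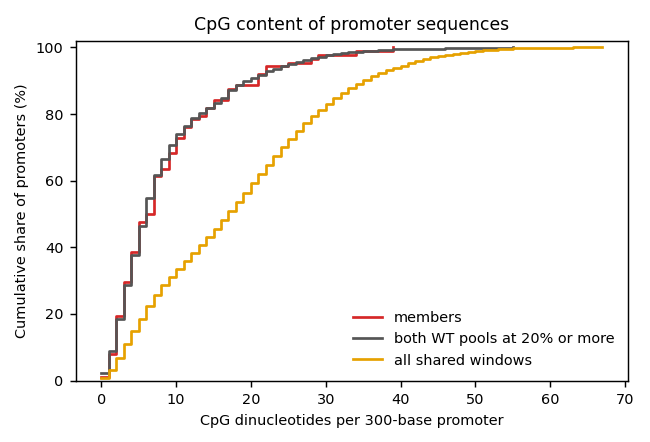
Cumulative share of promoters (vertical, %) by CpG dinucleotides per 300 bases (horizontal) for 88 member promoters, 1847 promoters at 20% or more in both WT pools and 16407 promoters of all shared windows. The member curve runs along that of the methylated promoters, with medians of 6.5 and 6.0 CpGs, and to the left of all shared windows at 17.0.

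Members were found on chromosomes 1 to 19 and X. Chromosome 7 held 37 members in 30 loci, 13.3% of members and 11.1% of the 6759 windows. Chromosome 14 had the largest share of its windows of that kind among the members (7.87% of 178) and chromosome 19 the smallest (0.769% of 130).

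Gene lists written for oocyte biology and other processes were counted next. Of 15261 named genes with a shared window 82 had a member window, 0.537%, and of the 1524 with a window at 20% or more in both WT pools the same 82 are 5.38%. None of 17 maternally imprinted control genes had one, although 14 of them had a window at 20% or more in both WT pools. Nor did any of 29 germline and meiosis, 24 oocyte and maternal-effect, 24 spindle and cohesin, 25 DNA repair, 20 methylation machinery, 19 granulosa and cumulus, 17 pluripotency, 21 housekeeping or 28 antioxidant and sirtuin genes. Of these 224 genes only 29 were at 20% or more in both WT pools, so the rest could not meet the rule. At 5.38%, 0 of 29 is too few genes to read a difference from. The immune cell list, with Sash3 and Itgal, was written with the Sash3 value already known. Of 17 gene families, 12 had no member, while zinc finger Zfp genes had 2 of 336, solute carriers 1 of 320, keratins 2 of 76, histocompatibility genes 2 of 23 and Tmem genes 1 of 211. Of these, 13 Zfp genes, 39 solute carriers, 7 keratins, 6 histocompatibility genes and 25 Tmem genes had a window at 20% or more in both WT pools. The histocompatibility list was added after values were seen, so its share is not an unbiased count.

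The same rule applied to the other pools gave 606 windows lowest in young WT only and 203 lowest in old WT only. In the opposite direction 516 windows were highest in the knockout only, 769 in young WT only and 363 in old WT only. These counts share pools, differ in depth and in how many windows could meet each rule, and were not tested against each other.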

How the data were processed

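Methylation of promoter windows was measured by low-input bisulfite sequencing in 10 libraries of 3 groups, per the labels. The authors deposited 1 pooled table per group with counts of methylated, unmethylated and all CpG calls, the number of covered positions, and a fraction. The fraction was read here as the mean methylated share over positions. In 470 of 470 knockout windows with 1 call per position it equals the level within 0.001. A mean over positions and a share of calls are equal there by arithmetic. The match thus cannot test the reading in windows with more calls. Per the submitters' processing notes, Trimmomatic, Bismark (version field 12.5) and mm10 were involved, in roles the notes here do not state. No listed window has fewer than 10 calls or 5 positions. A broken final line on chromosome X was dropped from the young WT table.

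Levels are 100 times methylated over all calls. Windows were joined on position and transcript. A window took the symbol of a RefSeq start (GRCm38.p6, the build of mm10) within 200 bp of its centre, otherwise of a gene boundary there unless both ends of the gene had windows. Pooled values allow no test, and none was made. Members, gene lists and motifs were chosen with earlier results of these data known. Named genes were the 15 largest smaller drops, the 15 largest with at least 50 calls in every pool, member genes of a list (up to 4), genes with 3 or more member windows (up to 6) and windows next to the threshold, without predicted genes, cDNA clones, microRNAs and olfactory or vomeronasal receptors. The core histone pattern was corrected and a histocompatibility list added after values were seen. Recovery by the rule was checked on simulated calls, with drops above the threshold planted only in windows with at least 50 calls. Those windows had levels over 50%. Interval coverage was checked over all shared windows. Most members have fewer calls, so recovery at their depth was not checked. The number of windows called without a planted drop is not given here. Python 3.11.15, numpy 2.4.6, pandas 2.3.3 and scipy 1.17.1 were used.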

Additional observations from a re-analysis of the deposited data

How the results depend on the processing

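Of 8 alternatives, the deposited fraction, the removal of windows whose calls per position differ over 5-fold between pools (276 windows), intervals that exclude 0 (226) and 1 window per locus (233) kept the number of members within 1.5 times of 279. A minimum of 20 calls per pool left 163 windows in 129 loci, and one of 50 calls left 38 in 30, with medians of 53.4%, 52.5% and 20.9% in young WT, old WT and the knockout. A threshold of 10 points gave 1032 windows in 829 loci, with medians of 52.5%, 50% and 20.8%. A threshold of 30 points gave 101 windows in 88 loci, with medians of 82.8% and 76.0% in young and old WT, and a median of -2.20 points to young WT in the nearest window 2000 to 20000 bp away. All alternatives but the deposited fraction select subsets or supersets of the members by their own construction. Their counts are thus no independent check of the list. The deposited fraction gave 292 windows, of which 172 were members. Of 72 differences of 36 named genes, 65 stayed within their counting interval by the deposited fraction, 7 moved out of it and 0 changed sign; the 7 are at Ralgapa2 (both), Junb, Krt7, Stk32b, H2-T3 and Lhb. No paired analysis was possible because each group is deposited as 1 pool, and leaving out each replicate was not run for the same reason. Depth limits most members: the median of 24 calls in the knockout means that a count of 0 (taken as up to 3 calls) allows a level of up to 12.5%.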
